A study of Mus musculus with 16 samples.

Results

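Loss of Nrf2 in a liver that also lacks Atg7 was measured by hybridising RNA of the double knockout and RNA of the Atg7 conditional knockout (Atg7 cKO) to the same 2-colour array. By their labels, 4 of the series' 16 arrays hold this pair of genotypes: experiments 7 and 8, each run with both dye orientations. Both sides carry Atg7F/F:Mx1-Cre, floxed Atg7 alleles with a Cre transgene under the Mx1 promoter, and the double knockout carries Nrf2-/- in addition. The other 12 arrays set Nrf2-/- (experiments 1 and 4), Atg7F/F:Mx1-Cre (2 and 5) or the double knockout (3 and 6) against wild type. Mx1-Cre is switched on by pIpC and is not restricted to hepatocytes. The series' design text has mice injected with pIpC at 8 weeks of age and livers taken 4 weeks later, while the growth protocol speaks of treatment over 4 weeks. The labels name no animals, so it is not known whether an RNA sample is 1 liver or a pool, or whether the direct arrays share RNA with the arrays against wild type, and p-values measure only the spread between the experiments.

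Atg7 is an E1-like enzyme needed to build autophagosomes. In liver without autophagy the receptor p62 (gene Sqstm1) accumulates and binds KEAP1, the adaptor that normally hands NRF2 (gene Nfe2l2) to the proteasome. NRF2 then enters the nucleus, pairs with small MAF proteins on antioxidant response elements and switches on genes of quinone reduction, glutathione synthesis and conjugation, NADPH supply and export of conjugates. The direct arrays show where expression in Atg7 cKO liver differs when Nrf2 is absent as well, since both sides carry the Atg7 deletion by their labels.

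Every value below is a log2 ratio of double knockout over Atg7 cKO unless stated otherwise, given as the mean ± SD of the 2 experiments after the dye orientations of each were averaged. Array values are given as experiment 7, experiment 7 with dyes reversed, experiment 8, experiment 8 with dyes reversed. A gene was called where limma's adjusted p was under 0.05, and "rose" and "fell" are used of called genes only. Of 16380 genes tested, 2412 (14.7%) were called, 1315 (8.03%) lower and 1097 (6.7%) higher in the double knockout; 403 rose and 579 fell at least 2-fold. The call rests on spread pooled over all 8 experiments: it was made for 306 genes without experiment 7, 1206 without experiment 8, 1425 without experiment 1 or without experiment 4, and 105 from experiments 7 and 8 alone. The count called in each list below is to be read against 14.7% of all genes called, 8.03% lower and 6.7% higher. Past 2-fold in both experiments were 346 genes on the high side and 504 on the low side, and 26 genes passed 2-fold in opposite directions. The plot of both experiments shows the genes of both NRF2 target lists near the diagonal and the acute phase genes displaced toward experiment 7.

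**Figure D1:**
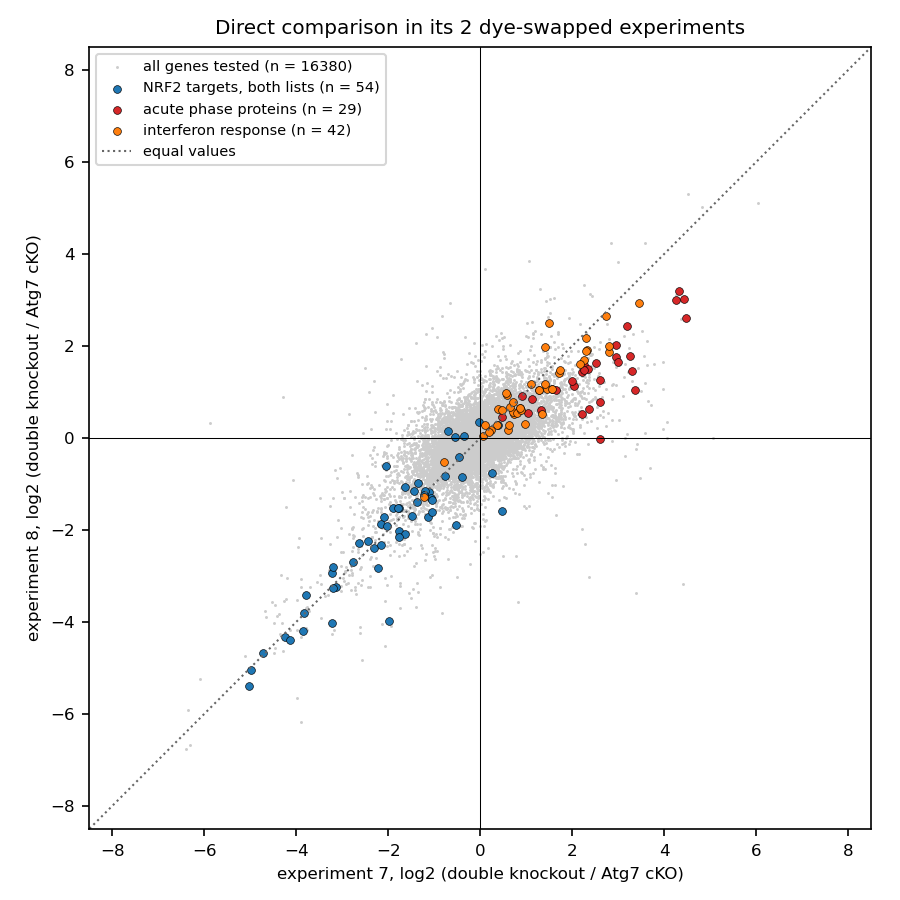
Each point is a gene, with its log2 ratio of double knockout over Atg7 cKO in experiment 7 (x) and experiment 8 (y), dye orientations averaged; grey marks all 16380 genes tested, colours mark 54 NRF2 targets, 29 acute phase genes and 42 interferon-response genes, and the dotted line marks equal values. NRF2 targets lie along the dotted line down to about -5, and acute phase genes lie on its experiment 7 side.

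The RNA read as liver on every array with scanner data: the 6 hepatocyte markers measured (Alb, Ttr, Apoa1, Apob, Cps1, Hnf4a) were well above background in 24 of 24 channels of experiments 1 to 6, and none was called on the direct arrays. Transcripts of the Y chromosome (Ddx3y, Eif2s3y, Kdm5d) were well above background in all 4 channels of each of experiments 1 to 3 and in 0 of 4 channels of each of experiments 4 to 6; Uty was so in 4, 4 and 1 of 4 channels of experiments 1, 2 and 3 and in 0 of experiments 4 to 6. Xist was the reverse, in 0, 1 and 0 channels of experiments 1 to 3 and in all 4 of each of experiments 4 to 6. On the direct arrays Ddx3y, Eif2s3y and Kdm5d had a ratio other than 0 in experiment 7 and were listed at 0 in experiment 8, and Xist the opposite, so experiments 1, 2, 3 and 7 and experiments 4, 5, 6 and 8 form 2 sets. Each comparison holds 1 experiment of each set, so its 2 experiments used RNA of different animals or pools. With the set as a block, an alternative chosen after seeing the data, 2803 genes were called. On the direct arrays the 5 sex-linked transcripts lay between -0.10 and 0.24, none called. Scanner files were read for experiments 1 to 6 only, so whether a gene was above background on the direct arrays is taken from the channels of the same genotypes there. Of the called genes, 76 were not well above background in any of the 4 double knockout channels, 24 in any of the 4 Atg7 cKO channels and 1 in either; folds of such genes are given as a bound, the bright genotype's mean in those channels over the detection floor of the dim one.

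Nfe2l2 itself was the check of the labels. Its brightest probe, on chr2:75513771-75513830 of build mm9, read -6.61, -6.01, -6.48 and -6.88, 90.2-fold lower in the double knockout (-6.49 ± 0.26, adjusted p = 7.47e-05). A second Nfe2l2 probe gave -4.22, and the probe named for the transcript AK029360, on chr2:75529947-75530006, gave 0.19. Atg7, deleted on both sides by the labels, read 0.05, -0.10, 1.38 and 0.68 with the probe of NM_028835 (0.50 ± 0.75, not called), at -3.42 in Atg7 cKO over wild type and -3.16 in double knockout over wild type. That probe was well above background in 1 of 4 channels of each mutant. The other Atg7 probe, named for the transcript AK076330, gave 0.51 on the direct arrays and -0.31 and -0.24 in Atg7 cKO and double knockout over wild type, and was well above background in 3 and 4 of 4 channels; whether it lies in the deleted part is not known here. Sqstm1 fell 1.98-fold (-0.99 ± 0.11, adjusted p = 0.00872), having stood at 1.52 in Atg7 cKO over wild type and 0.64 in double knockout over wild type. Keap1 was not called (-0.08 ± 0.07), nor were the NRF2 relatives and partners on the list other than Nfe2l2 and Sqstm1: 2 of 13 measured fell.

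Genes that reduce quinones, aldehydes and protein thiols made up one of the lists with the lowest medians. Of 27 measured, 22 fell and 0 rose, a count to be read against 8.03% of all genes called lower, with a median of -1.59 against 0.00785 over all genes tested; 15 fell without experiment 7 and 21 without experiment 8. The gene products act on reactive carbonyls and quinones (Nqo1, Cbr1, Cbr3, Aox1, aldo-keto reductases, aldehyde dehydrogenases) or keep protein thiols reduced (Srxn1, Txnrd1, Txn1, Prdx1, Prdx6). Because such lists were assembled from known NRF2 targets with earlier results of these data in view, their counts describe the set and carry no separate support for its direction.

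Cbr3, a carbonyl reductase, read -4.68, -5.38, -4.98 and -5.78, 36.9-fold lower (-5.21 ± 0.25, adjusted p = 0.000271). Srxn1, the sulfiredoxin that repairs overoxidised peroxiredoxins, read -4.42, -5.02, -4.45 and -4.88, 25.9-fold lower (-4.69 ± 0.04, adjusted p = 2.53e-05). Nqo1, the NAD(P)H quinone dehydrogenase often used as the reporter of NRF2 activity, read -3.49, -4.15, -3.55 and -4.05, 14.04-fold lower (-3.81 ± 0.01, adjusted p = 0.00112). All 12 of these array values were far below 0, and the dye orientations differed by more than the experiments did. Each of the 3 genes was higher in Atg7 cKO than in wild type, at 5.22 for Cbr3, 4.34 for Srxn1 and 2.67 for Nqo1. In double knockout over wild type Cbr3 still stood at 2.16, while Srxn1 was at -0.44 and Nqo1 at -1.93.

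Ugdh, which makes the UDP-glucuronic acid used for conjugation, fell 12.2-fold (-3.60 ± 0.26, adjusted p = 0.00124). Aox1, aldehyde oxidase, fell 8.46-fold, Entpd5 6.61-fold, Ptgr1 5.74-fold and Txnrd1, thioredoxin reductase, 5.08-fold. At the small end of the list's called genes, Akr1b8, Prdx6, Akr1c12, Prdx1 and Txn1 fell 2.21- to 2.28-fold. The 5 members that were not called were Osgin1 (-1.21), Akr1b7 (-0.55), Akr1b3 (-0.25), Aldh9a1 (0.16) and Hmox1 (0.34). Hmox1, haem oxygenase 1 and a classical NRF2 target in cultured cells, read 0.26, 0.52, 0.16 and 0.42; it was at 1.39 in Atg7 cKO over wild type and 1.72 in double knockout over wild type. For Akr1b7 and Akr1b3 the experiments lay on opposite sides of 0.

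**Figure D2:**
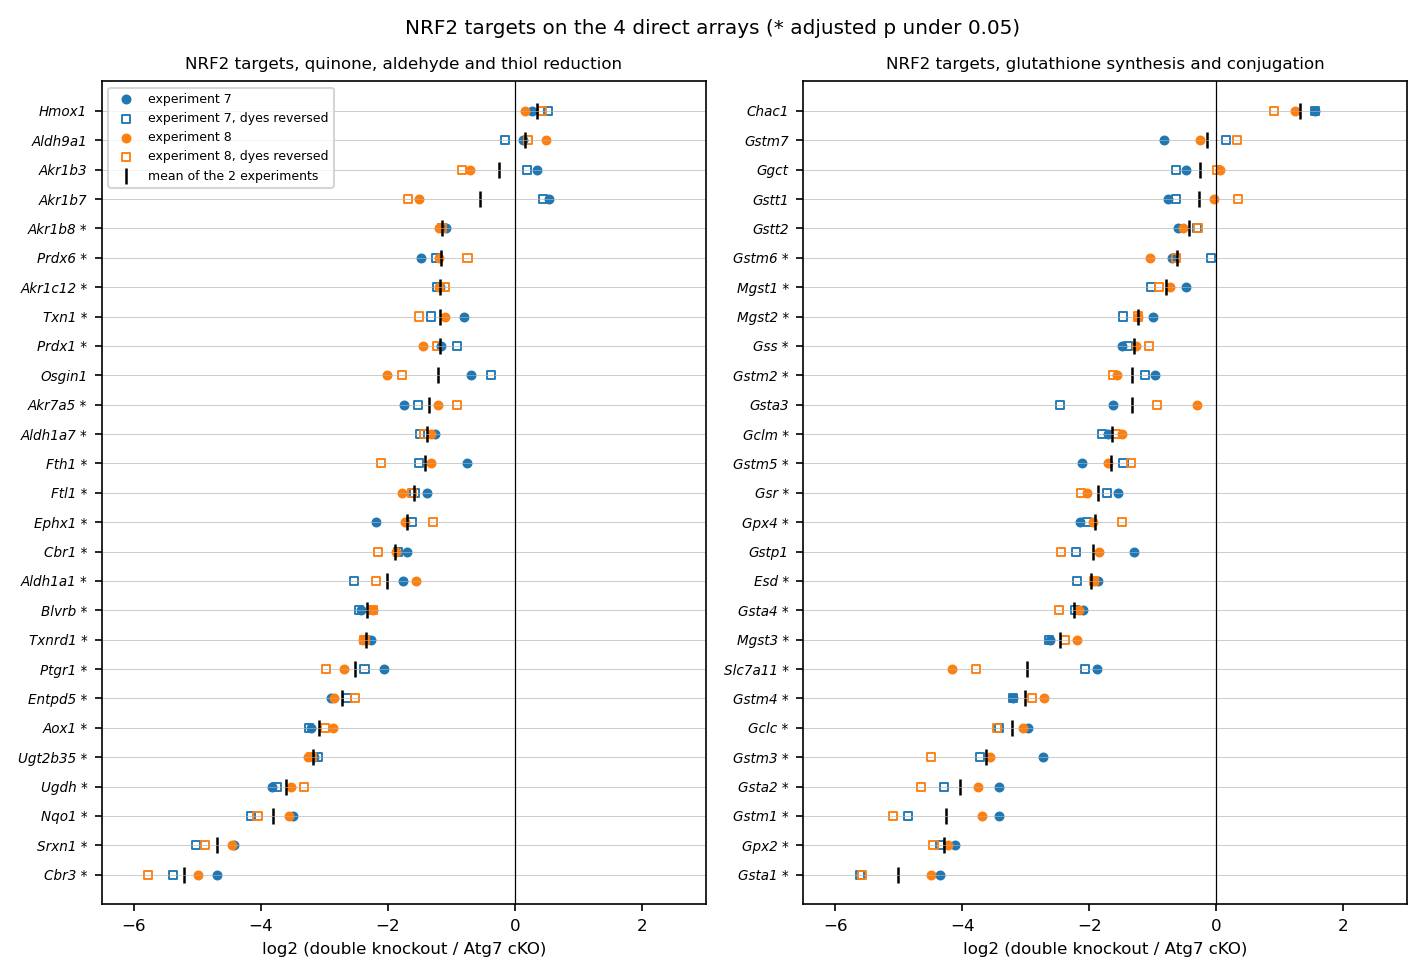
Log2 ratio of double knockout over Atg7 cKO (x) on each of the 4 direct arrays for the measured genes of both NRF2 target lists (y), circles for the first and open squares for the reversed dye orientation, black ticks for the mean of the 2 experiments, asterisks for adjusted p under 0.05. In the left panel 22 of 27 genes carry an asterisk and in the right panel 20 of 27, all left of 0.

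Genes of glutathione synthesis and conjugation gave similar counts: 20 of 27 measured fell, 0 rose, and the median was -1.86 (14 fell without experiment 7, 15 without experiment 8). Gsta1, an alpha-class glutathione S-transferase, read -4.35, -5.61, -4.48 and -5.58, 32.2-fold lower (-5.01 ± 0.04, adjusted p = 0.0004). Gpx2, a glutathione peroxidase, fell 19.5-fold and Gstm1, the most studied mu-class transferase, 19.2-fold. Gclc, the catalytic subunit of the ligase that starts glutathione synthesis, fell 9.34-fold (-3.22 ± 0.04), its modifier subunit Gclm 3.12-fold (-1.64 ± 0.16), glutathione synthetase Gss 2.46-fold and glutathione reductase Gsr 3.62-fold. Slc7a11, the cystine importer, read -1.88, -2.07, -4.15 and -3.79; its experiments differed by about as much as its smaller value (-2.97 ± 1.41, adjusted p = 0.0208), and it was well above background in 1 of 4 double knockout channels. The list's high value was Chac1, which degrades glutathione and belongs to the integrated stress response (1.31 ± 0.34, not called). Some transferases within the alpha class, and some within the mu class, are close paralogues, and their probes may share RNA.

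RefSeq promoter windows, 250 bases before to 50 after the start on build GRCm38.p6, were searched on both strands for the core of the antioxidant response element, TGACNNNGC. It was present in 12.39% of all windows. Counted by gene, with a match in any of its windows, it was present in 13.99% of all genes with a window and 16.64% of tested ones. The share was 21.24% of tested genes that fell at least 2-fold (89 of 419) and 17.32% of those that rose at least 2-fold (44 of 254). By list it was in 20.83% of the quinone, aldehyde and thiol list (5 of 24), 26.09% of the glutathione list (6 of 23), 26.67% of the interferon list (8 of 30) and 16% of the acute phase list (4 of 25). The sites below belong to called members of both NRF2 target lists and show how the letters sit before the start; capitals mark the match, a match on the other strand appears as its reverse complement, and sequences run 5′ to 3′ on the gene's strand.
Prdx1 (chr4:116685451-116685489): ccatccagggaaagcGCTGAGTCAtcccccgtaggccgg
Ugdh (chr5:65435951-65435989): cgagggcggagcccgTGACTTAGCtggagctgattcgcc
Txnrd1 (chr10:82859099-82859137): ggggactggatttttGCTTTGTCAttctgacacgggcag
Gclm (chr3:122245408-122245446): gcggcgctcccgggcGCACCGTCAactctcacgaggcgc
Gstm5 (chr3:107895797-107895835): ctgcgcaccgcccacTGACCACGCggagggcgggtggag
The matches lie 133, 132, 92, 134 and 42 bases before the start of transcription. A match is a description of letters and not a site shown to be bound. For Nqo1, Gsta1 and Srxn1 no match was found in the 250 bases before the start, which says nothing of elements after the start or further away.

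Genes of NADPH supply and of conjugate export fell too. In the pentose phosphate and NADPH list 5 of 11 fell and 0 rose: Pgd, 6-phosphogluconate dehydrogenase (-1.98 ± 0.04), Me1, malic enzyme (-1.85 ± 0.44), Tkt, transketolase (-1.56 ± 0.16), Taldo1, transaldolase (-1.16), and Idh1 (-0.88); without experiment 7 the count was 1. G6pdx, the first enzyme of the pathway, read 0.17, 0.31, -0.65 and -0.50 and was not called. Among efflux pumps 7 of 14 fell and 0 rose (3 without experiment 7, 4 without experiment 8). Abcc4, a basolateral exporter of conjugates and bile acids, read -4.22, -4.68, -4.29 and -4.85, 22.8-fold lower (-4.51 ± 0.08, adjusted p = 0.00336); its other probe gave -2.17. Abcc3 fell 5.9-fold, Abcg2 4.02-fold and Abcc2, the canalicular exporter, 2.22-fold, while the bile salt pump Abcb11 stood at 0.74 and was not called. Abcc12 was not above background in double knockout channels, so its level was at least 1.24-fold lower (adjusted p = 0.0019).

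Of 13 UDP-glucuronosyltransferases 7 fell and 0 rose (median -1.16), but their size differed between experiments: the medians were -1.66 in experiment 7 and -0.69 in experiment 8, and 1 fell without experiment 7. Ugt2b35 was even across arrays at -3.16, -3.11, -3.26 and -3.20, while Ugt2b37 read -2.41, -2.32, -1.05 and -1.08. Of 36 cytochromes P450 measured, 6 fell and 0 rose (median -0.05; 2 fell without experiment 7). Over all genes tested 14.7% were called in either direction and 8.03% lower. Cyp2a5, the coumarin hydroxylase, read -5.71, -6.98, -5.28 and -6.54, 69.98-fold lower (-6.13 ± 0.31, adjusted p = 0.000659), and Cyp2a4, a steroid hydroxylase close to it in sequence, fell 50.4-fold (-5.66 ± 0.60, adjusted p = 0.00483), with 2 other probes as far up as -3.43. Cyp1a1 fell 15.5-fold, and was well above background in 2 of 4 double knockout channels; Cyp2f2, Cyp1a2 and Cyp2c55 fell by 2.13, 1.95 and 1.18 on the log2 scale. Cyp2e1 read 0.36, 0.35, 2.31 and 2.14 and was not called.

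Outside the lists, the genes that fell furthest included Styk1, a kinase-like receptor, which read -5.88, -6.91, -6.15 and -7.37. It was not above background in double knockout channels, so its level was at least 3.82-fold lower (adjusted p = 2.53e-05). The same holds for Meig1 (at least 1.67-fold lower), Krt20, an intestinal-type keratin (at least 1.86-fold), and Serpina5, a serine protease inhibitor (at least 1.85-fold). Maoa, the monoamine oxidase, was measured on both sides and read -4.19, -4.52, -4.05 and -4.45, 19.7-fold lower (-4.30 ± 0.07, adjusted p = 7.47e-05). Myot, a sarcomere protein, read -3.39, -4.42, -5.98 and -6.34 (-5.03 ± 1.60, adjusted p = 0.0101; above background in 2 of 4 double knockout channels). The unnamed probe A_51_P305138 stood at -4.46 ± 0.25. Maoa had been at 4.51 in Atg7 cKO over wild type and was at 0.21 in double knockout over wild type.

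Acute phase genes were higher in the double knockout than in Atg7 cKO. In Nrf2 knockout over wild type, with Atg7 intact, their median was 0.13. These hepatocyte-secreted proteins (serum amyloid A, orosomucoids, fibrinogen, haptoglobin, hemopexin) are induced in hepatocytes by interleukin 6 and interleukin 1. All 29 measured members had a mean above 0, 21 rose, against 6.7% of all genes called higher, and 0 fell, with a median of 1.91, the highest of the 37 lists. Each of the 29 was larger in experiment 7 than in experiment 8 (medians 2.52 and 1.43): 23 rose without experiment 8 and 5 without experiment 7.

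Saa2 read 4.92, 3.72, 3.62 and 2.77, 13.5-fold higher (3.76 ± 0.79, adjusted p = 0.00647), and Saa1 4.98, 3.89, 3.26 and 2.79, 13.3-fold higher (3.73 ± 0.996, adjusted p = 0.00936). Saa3 rose 12.3-fold and Orm2 11.6-fold; the near-identical coding regions of Saa1 and Saa2 and of the Orm genes may share signal between probes. Every array was well above 0 for all 4 genes, with experiment 7 above experiment 8. In Atg7 cKO over wild type Saa1, Saa2, Saa3 and Orm2 lay at -0.01, 0.03, -0.09 and 0.09, and in double knockout over wild type at 3.93, 3.75, 3.34 and 3.75. Fgg, the fibrinogen gamma chain, rose 5.62-fold, Hpx, which binds free haem, 4.2-fold, Hp, which binds free haemoglobin, 3.52-fold, and Hamp, the iron hormone hepcidin, 3.05-fold. The metallothioneins Mt1 and Mt2 read 2.33 and 3.75 on the first array of experiment 7 and 0.64 and 1.24 on the first of experiment 8, and were not called. Il1rn read 2.66, 2.55, 0.12 and -0.15 and was not called either. The lowest ratio of the list was that of Serpina3m, 0.47.

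**Figure D3:**
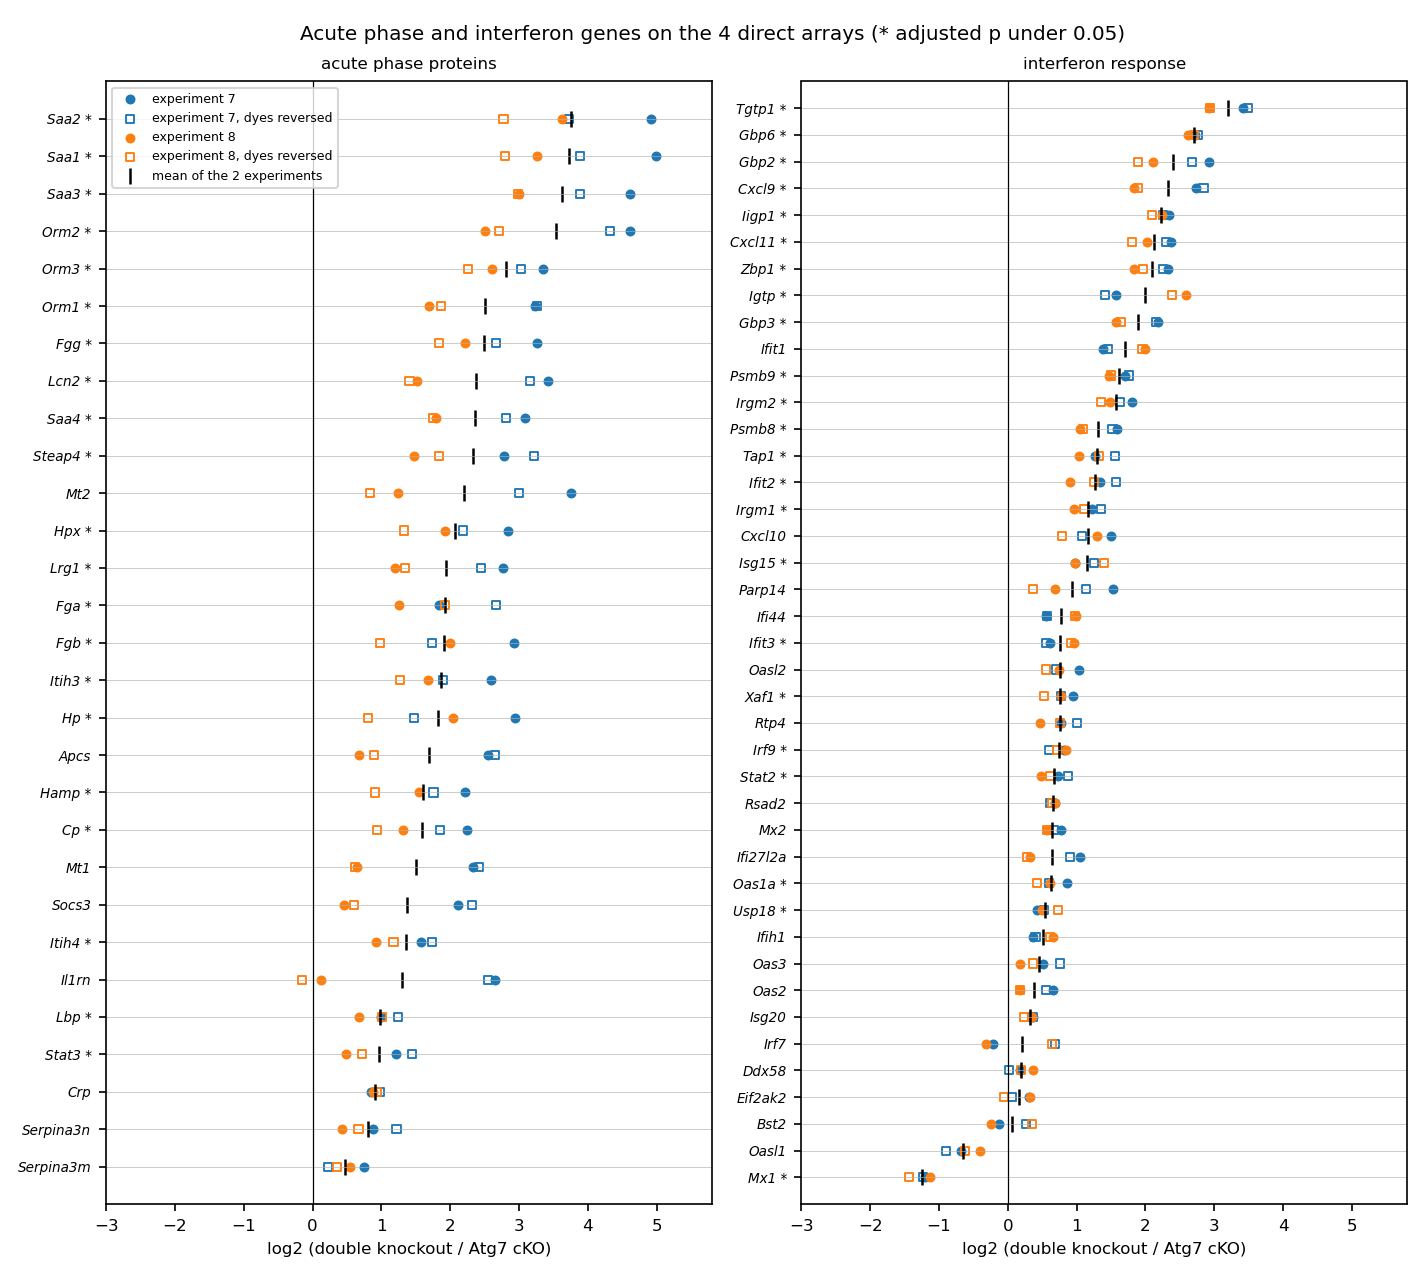
Log2 ratio of double knockout over Atg7 cKO (x) on each of the 4 direct arrays for 29 acute phase genes (left) and 41 of the 42 interferon-response genes (right), circles for the first and open squares for the reversed dye orientation, black ticks for the mean of the 2 experiments, asterisks for adjusted p under 0.05. All 29 acute phase means lie right of 0 with experiment 7 beyond experiment 8, and Mx1 is the called interferon gene left of 0.

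Among 42 measured interferon-response genes 23 rose and 1 fell (median 0.77; 5 rose without experiment 7, 11 without experiment 8). Tgtp1, a GTPase induced by interferon gamma, read 3.42, 3.49, 2.93 and 2.94, 9.16-fold higher (3.19 ± 0.37, adjusted p = 0.00126). Gbp6 rose 6.51-fold (2.70 ± 0.06) and Gbp2 5.28-fold (2.40 ± 0.56), both guanylate-binding proteins of the same response. Cxcl9, Cxcl11, Iigp1, Psmb8 and Psmb9, named after their values were seen, rose by 2.33, 2.12, 2.23, 1.31 and 1.61 on the log2 scale. Isg15, a ubiquitin-like protein, rose 2.22-fold, and Ifit1 (1.70), Irf7 (0.20) and Oas2 (0.39) were not called. Mx1, also named after its value was seen, fell 2.38-fold (-1.21, -1.23, -1.13 and -1.43), and was well above background in all 4 channels of each mutant and in 1 of 12 wild-type channels.

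The interferon-stimulated response element was searched as GAAANNGAA in the same windows, and a STAT element as TTCNNNGAA; both motifs were added after the gene values were seen. GAAANNGAA was in 9.02% of tested genes with a window, 16.54% of those that rose at least 2-fold (42 of 254), 6.44% of those that fell at least 2-fold (27 of 419) and 66.67% of the interferon list (20 of 30). TTCNNNGAA was in 8.54% of tested genes, 13.78% of those that rose at least 2-fold, 28.0% of the acute phase list (7 of 25) and 30.0% of the interferon list (9 of 30). Of the NRF2 target lists it was in 21.74% for glutathione (5 of 23) and 8.33% for quinone, aldehyde and thiol reduction (2 of 24). Sites before the start of members that rose are shown with the match in capitals, 5′ to 3′ on the gene's strand; the Gbp2 match is on the other strand and appears as its reverse complement.
Tgtp1 (chr11:48992300-48992338): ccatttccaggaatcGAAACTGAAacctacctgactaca
Igtp (chr11:58199507-58199545): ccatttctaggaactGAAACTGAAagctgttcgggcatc
Irgm2 (chr11:58214898-58214936): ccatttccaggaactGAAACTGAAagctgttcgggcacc
Gbp2 (chr3:142620590-142620628): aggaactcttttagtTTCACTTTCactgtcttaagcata
Fga (chr3:83025904-83025942): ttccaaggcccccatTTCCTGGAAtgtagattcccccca
Fgb (chr3:83050002-83050040): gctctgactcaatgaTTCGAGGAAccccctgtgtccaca
Those of Tgtp1, Igtp, Irgm2 and Gbp2 show the interferon element, and those of Fga and Fgb the STAT element. In Tgtp1, Igtp and Irgm2, GTPases of related families, a STAT match lies just before the interferon element, visible in lower case as ttctaggaa or ttccaggaa.

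Of 31 chemokines and inflammatory mediators 13 rose and 0 fell, with a median of 1.1 (1.42 in experiment 7 and 0.65 in experiment 8; 3 rose without experiment 7). Cxcl1, a neutrophil attractant, read 4.55, 4.19, 2.78 and 2.38, 11.1-fold higher (3.47 ± 1.27, adjusted p = 0.0138). Cxcl13 rose 6.49-fold (2.70 ± 1.54, adjusted p = 0.0362) and Ccl12 6.09-fold (2.61 ± 1.44, adjusted p = 0.0363); for both, experiment 7 exceeded 3 and experiment 8 stayed under 2. Cxcl13 and Ccl12 were well above background in some but not all of the 8 mutant channels. Tnf read 2.17, 2.64, 0.70 and 0.90 and rose 3.04-fold. Ccl2, the monocyte attractant, was not called (0.19 ± 0.89), although it stood at 2.57 in Atg7 cKO over wild type.

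Markers of blood-derived cells moved with these genes. Neutrophil markers had all 10 measured means above 0 and a median of 1.27; S100a9 (2.27 ± 1.45), a granule-cytosol protein of neutrophils, and Cxcr2 (1.72 ± 0.41), the receptor for Cxcl1, rose, and 0 of 10 were called without experiment 1, 4 or 7. In the scanner channels of experiments 2, 3, 5 and 6, the signals of the 10 neutrophil markers were summed. The sums were 3216 to 9762 in the 4 Atg7 cKO channels and 17912 to 33773 in the 4 double knockout channels. Each set of 4 channels is 2 experiments in both dye orientations. These sums and those below were not scaled between arrays, lean on the brightest genes and were not tested. Of 18 markers of T, NK and B lymphocytes 9 rose and 0 fell (median 0.83; 0 without experiment 7, 4 without experiment 8), among them Cd8a (1.42 ± 0.27), Gzma (1.13 ± 0.19) and Jchain (1.56 ± 0.63). Their summed signal was 3539 to 4947 in Atg7 cKO and 6439 to 9340 in double knockout channels. All of these markers were well above background in at least 1 mutant channel, and Cxcr2 and Cd8a in some but not all of the 8. In whole liver, more cells of a type and more RNA per cell cannot be told apart, and the part of such cells in the interferon and chemokine values was not tested.

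Of 29 macrophage and Kupffer markers 3 rose and 1 fell (1 and 0 without experiment 7, 5 and 0 without experiment 8), with medians of 0.66 in experiment 7 and 0.02 in experiment 8. The share of these markers called was near the 14.7% of all genes. Timd4, a receptor of resident Kupffer cells, rose 4.86-fold (1.58, 1.48, 3.12 and 2.94), and Marco, a scavenger receptor, rose 2.71-fold. Trem2 fell 2.19-fold, a call lost in 12 of 21 alternative settings, among them leaving out any one of experiments 1, 2, 4, 5, 7 and 8; Aif1, named after its value was seen, rose by 0.94. Adgre1, Cd68 and Clec4f stood at 0.25, 0.03 and -0.16 and were not called. The summed signal of the 29 was 350251 to 634331 in Atg7 cKO channels and 528622 to 667154 in double knockout channels, which overlap. Endothelial markers had a median of -0.46, with -0.69 in experiment 7 and -0.09 in experiment 8. Lyve1 fell 2.94-fold and the other 16 were not called, a share under the 14.7% of all genes. The unscaled sums of the 17 endothelial markers were 36669 to 39457 in Atg7 cKO and 21965 to 32749 in double knockout channels. Stellate cell and matrix genes showed 2 rises and 2 falls among 27, a share near the 14.7% of all genes called. The metalloproteinases Mmp12 and Mmp13 fell 3.88-fold and 3.79-fold, Thy1 and Fn1 rose by 0.85 and 0.61, and the collagens Col1a1 (-0.22) and Col3a1 (0.29) were not called. Mmp12 was well above background in some but not all of the 8 mutant channels, and ran from -2.39 to -0.72 over 20 alternative settings.

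Fetal and injury genes of the Atg7 cKO liver were lower in part. Of 16 cholangiocyte, progenitor and oncofetal genes 6 fell and 0 rose (2 without experiment 7, 2 without experiment 8). Gpc3, an oncofetal proteoglycan, read -2.49, -2.95, -3.17 and -3.45, 8.08-fold lower (-3.01 ± 0.42, adjusted p = 0.00958). It was well above background in some but not all of the 8 mutant channels, and ran from -3.31 to -1.19 over 20 alternative settings. Afp, alpha-fetoprotein, read -1.79, -2.07, -3.88 and -4.28, 8.03-fold lower (-3.01 ± 1.52, adjusted p = 0.0442), a call that was lost without any one of experiments 1, 3, 4, 6, 7 and 8. Cholangiocyte markers proper were divided: Krt19 fell by 0.72, while Krt7 (-0.25), Epcam (-0.22) and Sox9 (0.02) were not called. Among injury-induced hepatocyte genes 7 of 27 fell and 2 rose (4 and 1 without experiment 7, 4 and 4 without experiment 8). Spink1, a trypsin inhibitor, fell 10.3-fold (-2.70, -2.53, -4.12 and -4.09) with 6.92 in Atg7 cKO and 4.54 in double knockout over wild type, where it was well above background in 9 of 12 wild-type channels. The plasminogen activator Plat fell 4.82-fold and Ly6d 4.28-fold, while S100a4 and Vcam1, named after their values were seen, rose by 1.89 and 1.47.

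Cell-cycle genes were high in both mutants over wild type (medians 2.52 in Atg7 cKO and 2.22 in double knockout). On the direct arrays 33 of 34 lay below 0, but 2 were called, Mcm2 (-0.95 ± 0.34) and Pcna (-0.57 ± 0.24), and the medians were -0.05 in experiment 7 and -0.96 in experiment 8; 0 were called without experiment 2, 5 or 8. Of 26 targets of p53 measured 4 were called, a share near the 14.7% of all genes. Trp53inp1 rose 2.44-fold, Fas 1.98-fold and Bbc3 1.84-fold, Perp fell by 0.72, and Cdkn1a (0.60) and Mdm2 (-0.07) were not called; 0 were called without experiment 7.

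Lipid genes that fell furthest belong to storage and elongation. Cidec, a lipid droplet protein that drives droplet fusion, read -3.82, -3.62, -3.72 and -3.82, 13.4-fold lower (-3.75 ± 0.04, adjusted p = 7.47e-05), and Elovl7, a fatty acid elongase, fell 17.4-fold (-4.12 ± 0.31, adjusted p = 0.00144). Their ratios in Atg7 cKO over wild type were 3.94 and 4.71, with Elovl7 well above background in 7 of 12 wild-type channels. Of 30 synthesis genes 7 fell and 2 rose (3 and 0 without experiment 7): Dgat2 (1.498) and Elovl5 (1.34), named after their values were seen, were the ones that rose, and Fasn (0.08) and Scd1 (0.95) were not called. Of 39 fatty acid oxidation genes 8 fell and 0 rose (median -0.43; 0 without experiment 7, 4 without experiment 8), led by the peroxisomal enzymes Acaa1b (-1.29 ± 0.82) and Ehhadh (-1.18 ± 0.30) and the acyl-CoA thioesterase Acot2 (-1.06 ± 0.25). The Acaa1b call was lost in 12 of 21 alternative settings. Of 25 cholesterol synthesis and uptake genes 0 were called, with values from -0.74 to 0.53. Among bile acid genes the 3 that fell were the pumps Abcc4, Abcc3 and Abcc2 given above; Slco1a1, an organic anion importer, read 0.997, 1.13, 4.48 and 3.23 and was not called. Glucose genes moved both ways, 7 down and 3 up of 29 (0 called without experiment 7): Slc2a2, the liver glucose transporter, fell 3.96-fold (-1.98 ± 1.19, adjusted p = 0.0385), Pfkfb3 rose 2.49-fold and Hk3, a hexokinase of white blood cells, 2.18-fold.

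Of 23 genes of haem breakdown and iron handling 9 fell and 6 rose (3 and 1 without experiment 7). The ferritin subunits Ftl1 (3.01-fold) and Fth1 (2.68-fold), the reductase Blvrb (5.05-fold), the haem transporter Slc48a1 (4.44-fold), the transferrin receptor Tfrc (3.16-fold) and Bmp6 (4.75-fold), a secreted inducer of hepcidin, were among those that fell. Bmp6 was well above background in some but not all of the 8 mutant channels, and ran from -2.54 to -0.84 over 20 alternative settings. Lcn2, which binds bacterial siderophores (5.19-fold), Hamp and Cp were among those that rose; these 3 are acute phase genes as well, and are counted in both lists.

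**Figure D4:**
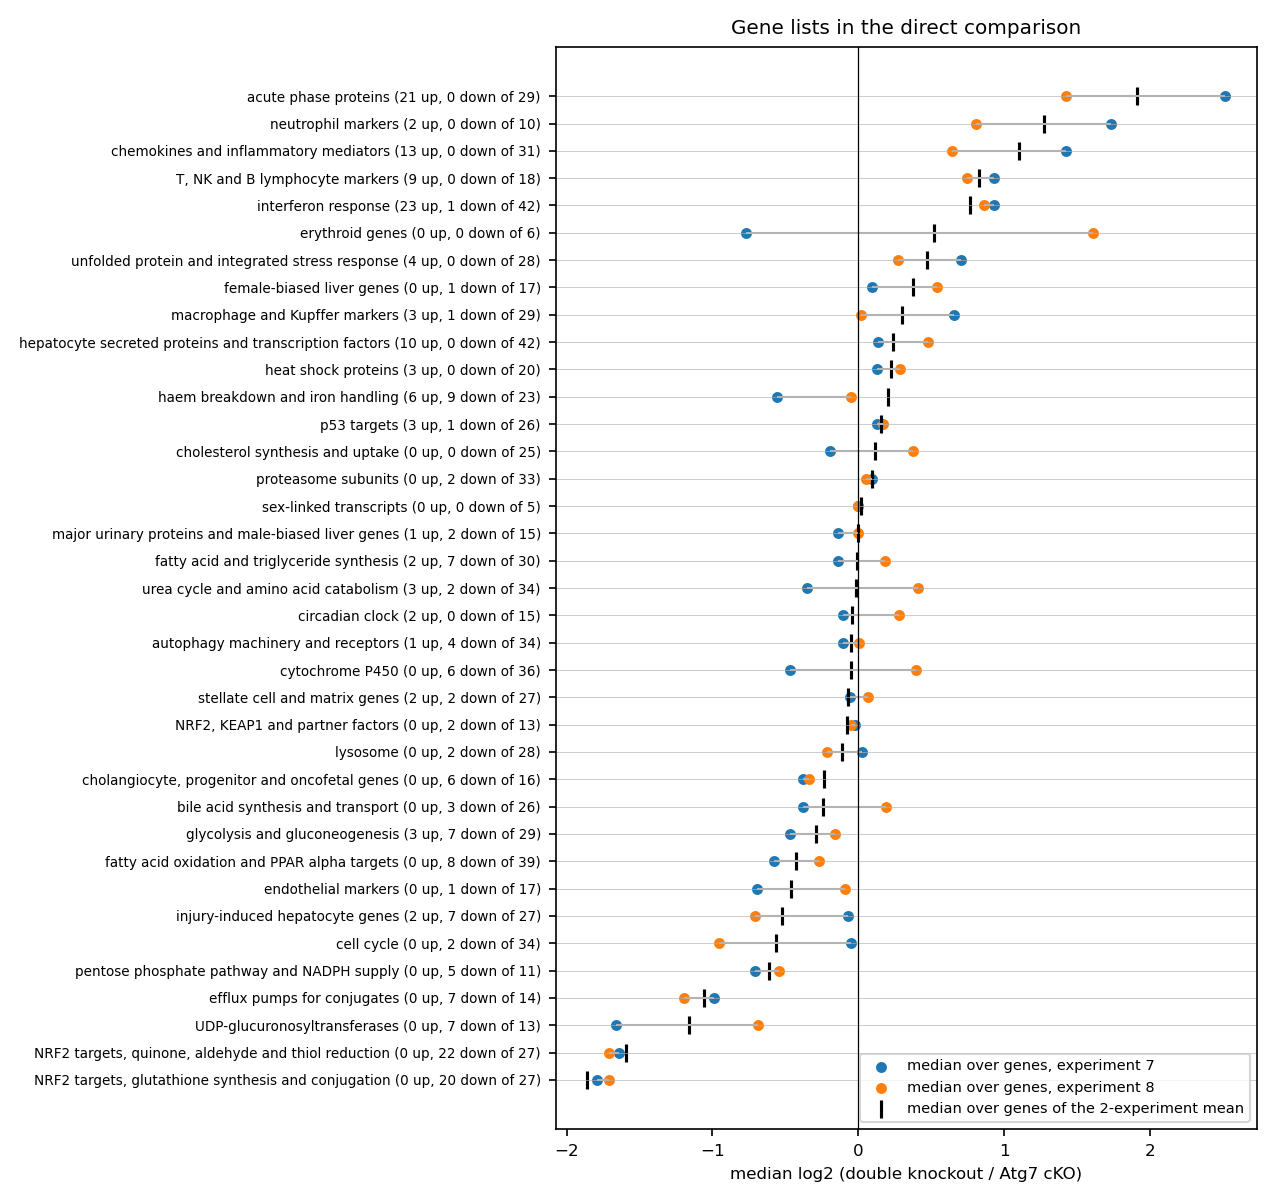
Median log2 ratio of double knockout over Atg7 cKO (x) over the measured genes of each of 37 lists (y) in experiment 7 (blue), in experiment 8 (orange) and for the mean of the 2 experiments (black ticks), with the numbers called higher and lower. Both NRF2 target lists, at -1.86 and -1.59, lie at the low end with the experiments close together, and acute phase proteins, at 1.91, lie at the high end with the experiments apart.

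Of 34 autophagy genes 5 were called, against 14.7% of all genes. Map1lc3a, an LC3 isoform (2.14-fold), Sqstm1, Gabarapl1 and Atg12 fell and Atg14 rose (1.55-fold), with a median of -0.05; 2 fell with any one of experiments 1 to 6 left out, 0 were called without experiment 7, and 1 fell and 0 rose without experiment 8. Of 33 proteasome subunits 2 fell, Psmb5 (1.72-fold) and Psme4 (1.42-fold), and of 28 lysosome genes 2 fell, Lipa (1.84-fold) and Hexa (1.46-fold); neither list had a call without experiment 7, and each had 1 without experiment 8. Of 28 genes of the unfolded protein and integrated stress responses 4 rose and 0 fell (median 0.47; 0 without experiment 7, 1 without experiment 8), a share near that of all genes called: Herpud1 2.15-fold, Hspa5, the chaperone BiP, 1.56-fold, Creld2 1.46-fold, and Manf by 0.53. The Hspa5 call was lost in 15 of 21 alternative settings. Heat shock genes gave 3 rises in 20, a share near the 14.7% of all genes called: Hspa2 (3.94-fold), Dnaja4 (2.28-fold) and Hspb8 (1.53-fold). The shares of proteasome subunits and of lysosome genes that fell were under the 8.03% of all genes called lower.

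Hepatocyte genes outside the acute phase list gave fewer calls. Of 42 secreted proteins and liver transcription factors 10 rose and 0 fell (1 without experiment 7), with a median of 0.24; Ambp rose by 1.48 ± 0.74 and the transcription factor Cebpb by 1.36 ± 0.20. Of 34 urea cycle and amino acid genes 3 rose and 2 fell: Tat rose by 1.64 on the log2 scale and Glul 2.02-fold, Ddc fell 4.06-fold, and none was called without experiment 7. The share of urea cycle and amino acid genes called was near the 14.7% of all genes, and the Glul call was lost in 12 of 21 alternative settings. Male-biased genes gave 1 rise and 2 falls in 15, against 14.7% of all genes called. These were Mup3 (4.15-fold higher), Mup5 (3.08-fold lower) and Mup4 (2.49-fold lower), whose sequences are near copies. Female-biased genes gave 1 call in 17, Cyp2a4 described above, a share under that of all genes. Clock genes gave 2 rises and 0 falls in 15, a share near that of all genes. Nfil3 rose 1.93-fold and Arntl 1.71-fold, while Nr1d1 read -2.24, -2.56, -1.77 and -1.62 and was not called. Erythroid genes had medians of -0.77 in experiment 7 and 1.61 in experiment 8, and 0 of 6 were called.

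The highest single rises were in genes with little annotation. BC023105 read 6.61, 5.48, 5.38 and 4.85, 47.9-fold higher (5.58 ± 0.66, adjusted p = 0.00164), and LOC667597 5.05, 4.58, 5.28 and 4.78, 30.4-fold higher (4.92 ± 0.15). Both were also higher in Nrf2 knockout over wild type, at 2.05 and 2.10. BC023105 was well above background in some but not all of the 8 mutant channels. Its log2 ratio ran from 2.16 to 6.05 over 20 alternative settings, so its fold is uncertain. Apol10b, an apolipoprotein L relative, rose 12.9-fold and was well above background in 1 of 4 Atg7 cKO channels; Gbp5 rose 7.34-fold and Atp11a, a phospholipid flippase, 7.2-fold. The probes ENSMUST00000103416 and 5033406O09Rik were not above background in Atg7 cKO channels, so those levels were at least 1.95-fold and 1.72-fold higher.

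The same loss of Nrf2 was measured with Atg7 intact in experiments 1 and 4, and the difference between both settings was tested on separate arrays. It was called for 195 genes (1.19%) where the double knockout over Atg7 cKO ratio was the more negative and 54 (0.33%) where it was the more positive. The count of 249 fell to between 7 and 76 when any 1 of the 8 experiments was left out. Each NRF2 target list had 13 of 27 genes called more negative and 0 more positive, with median differences of -1.11 and -1.64. Acute phase genes had 3 and interferon genes 5 called more positive and 0 more negative.

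Srxn1 was at -0.46 ± 0.11 in Nrf2 knockout over wild type and at -4.69 ± 0.04 in double knockout over Atg7 cKO, a difference of -4.23 with a standard error of 0.13 (adjusted p = 0.000363). Cbr3 (-0.25 against -5.21), Maoa (0.23 against -4.30) and Cidec (-0.26 against -3.75) had the same form, each near 0 with Atg7 intact. For Nqo1 the ratio was -1.82 with Atg7 intact and -3.81 with Atg7 deleted, and the difference of -1.99 missed the threshold (adjusted p = 0.0517). Aox1 (-1.97 against -3.08) and Ephx1 (-1.34 against -1.71) fell on the direct arrays, and their differences between settings were not called. Mgst3, a microsomal glutathione transferase, was on opposite sides: 1.15 ± 0.36 with Atg7 intact and -2.46 ± 0.24 with Atg7 deleted (adjusted p = 0.00698). Nfe2l2 differed by 0.29 with a standard error of 0.26 (adjusted p = 0.607).

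**Figure D5:**
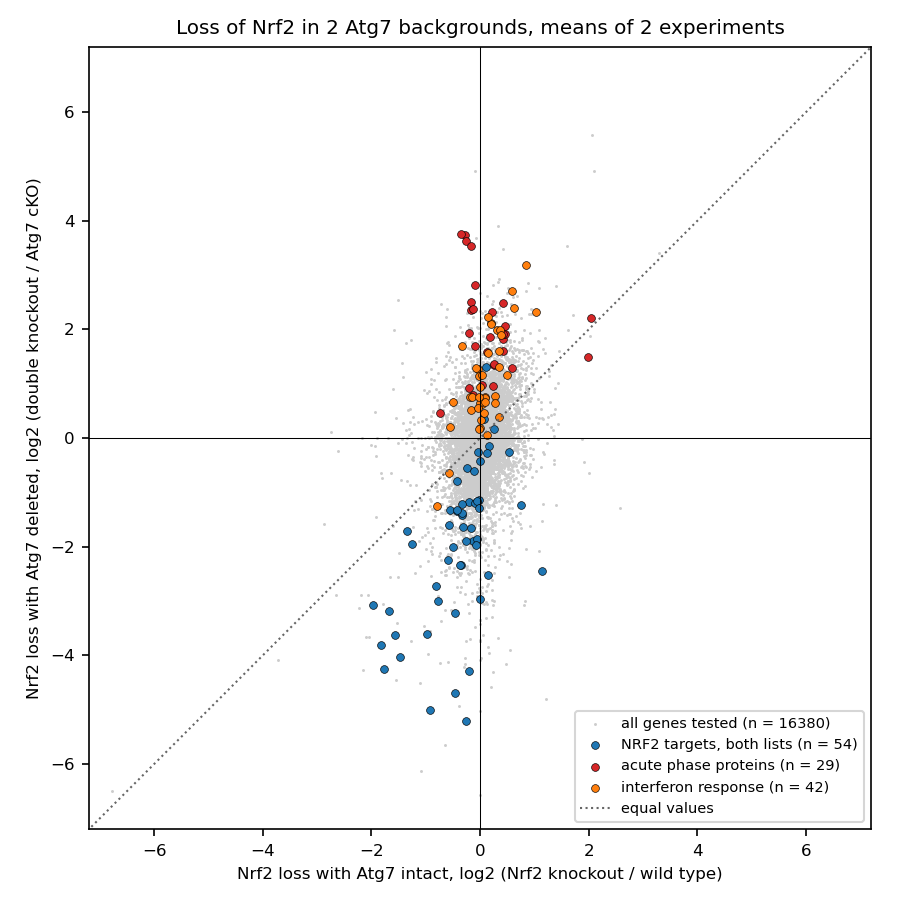
Each point is a gene, with its log2 ratio of Nrf2 knockout over wild type (x, experiments 1 and 4) and of double knockout over Atg7 cKO (y, experiments 7 and 8), means of 2 experiments; grey marks all 16380 genes tested and colours mark the gene lists. NRF2 targets spread from 0 to about -5 on the vertical axis while most lie between 0 and -2 on the horizontal one, and the points furthest along the dotted line at the lower left include Nfe2l2.

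The same quantity can be reached through wild type, as double knockout over wild type minus Atg7 cKO over wild type. By limma the direct ratio differed from it for 0 of 16380 genes (0%), with 192 at an unadjusted p under 0.05 and a smallest adjusted p of 0.1828; the median absolute difference was 0.0727. The values were -4.69 directly and -4.79 through wild type for Srxn1, and -4.30 by both routes for Maoa. Those of Cbr3 (-5.21 and -3.06) and Gpx2 (-4.29 and -2.63) were further apart, and neither difference was called. With n = 2 experiments per comparison, the count of 0 therefore does not show that both routes give equal values. Gpx2 was well above background in 6 of 12 wild-type channels. Across genes, which are not independent replicates, experiment 7 correlated at 0.871 with experiment 3 minus experiment 2 and at 0.626 with experiment 6 minus experiment 5, and experiment 8 at 0.628 and 0.88. Whether the direct arrays use the same RNA as those experiments is not stated, so the routes cannot be taken as independent.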

How the data were processed

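Liver RNA was measured on 2-colour Agilent arrays, 16 in 8 dye-swapped experiments. The deposited value table holds log10 ratios of Cy5 over Cy3 for all 16 arrays, and the deposited scanner files of experiments 1 to 6 hold spot intensity, processed intensity and flags, made with Agilent Feature Extraction 9.5.1 per the submitters' processing notes and protocol GE2-v5_95_Feb07 on build mm9 per the file headers. In those 12 arrays the table lay within 0.005 of the scanner log10 ratio, and an exact 0 marked a spot set to a surrogate in a channel; 26.6% to 29.3% of probes are listed at 0 on the direct arrays, whose scanner files were not used here. Log10 ratios were multiplied by 3.32 to give log2, turned to mutant over control, and averaged over both dye orientations, which count as 1 replicate, so n = 2 experiments in every comparison. A RefSeq table gave names to 24844 of the 41174 probes through their accession, to 6045 through a symbol and to 1810 through a synonym; the other 8475 keep the file's name.

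A gene was represented by its brightest probe among those flagged well above background in 4 or more of 24 channels (experiments 1 to 6); 16380 genes were tested. Group means over the 8 experiments were fitted with limma 3.58.1 in R 4.3.3 (residual df 4, prior df 2.13), with Benjamini-Hochberg adjustment over all genes at 0.05. The labels do not say which animals an experiment used. The 2 experiments of each comparison differed in the sex-linked transcripts detected, so they came from different animals or pools. Their spread holds that difference as well as technical variation. The number of arrays limits the precision. The members and gene lists were chosen with earlier results of these data known. Genes named by rule were the 15 largest calls each way with the same sign on all 4 arrays and a probe well above background in 4 or more of 8 mutant channels, the 3 largest calls of each list, further called members of the NRF2 target lists, the 5 largest differences each way between settings, and the targeted genes; any other gene was chosen after its values were seen. Alternatives covered the filter, the probe summary, loess, scaling, the dye effect with a random block, the prior, the wild-type route, each experiment left out and, added after seeing the data, a block for 2 sets of experiments and a ratio measured on all 4 direct arrays. Some items are not reported here.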

Additional observations from a re-analysis of the deposited data

Results flagged for a closer look

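The effect of Nrf2 loss differed between liver with Atg7 deleted and liver with Atg7 intact for 249 genes by limma's test of the difference itself; the values here are log2 differences, deleted minus intact. The differences furthest below 0 were those of Styk1 (-6.58), Krt20 (-6.03), Cyp2a5 (-5.04), Cbr3 (-4.96) and Serpina5 (-4.78). In Nrf2 knockout over wild type Styk1 is listed at 0, and Styk1, Krt20 and Serpina5 were not above background in double knockout channels, so those differences are not measured folds. The differences furthest above 0 were those of ENSMUST00000103416 (5), Saa2 (4.11), Saa3 (3.87), Orm3 (2.90) and Plekhg4 (2.85). ENSMUST00000103416 and Plekhg4 were not above background in any Atg7 cKO channel. The count falls to between 7 and 76 when 1 experiment is left out.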

How the results depend on the processing

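The 2412 genes called on the direct arrays became 4206 with a dye effect and the experiment as a random block and 5599 with the direct and wild-type arrays combined. They became 105 with experiments 7 and 8 alone, and 4 (value table) and 80 (scanner signals) with the route through wild type in place of the direct arrays; these 3 fits use fewer samples or leave the direct arrays out. Leaving out 1 experiment gave 306 (without experiment 7) to 1825 calls, the lone experiment being assumed to vary like the other groups. The 249 genes whose Nrf2 effect differed between settings became 1349 with the random block and 1065 with the combined arrays, and 7 to 76 with 1 experiment left out. The cause of these shifts was not tested. The direct ratio differed from the route through wild type for 0 genes in each of the settings run. The filter on dim probes, the median over probes, loess, scaling, the trended prior and both alternatives chosen after seeing the data (a ratio measured on all 4 direct arrays, and the 2 sets of experiments as a block, with 2803 and 248 calls) kept both counts within 1.5 times. Of 139 named called genes, 0 reversed in any setting, 62 were called without experiment 7 and 101 without experiment 8. Gsta1, Nfe2l2 and Srxn1 were called in all 21 alternative settings, while Mup4 lost its call in 16 of 21. Styk1 was called in the 20 settings that tested it, with ratios from -6.93 to -1.88. It was not tested where a probe had to be well above background in all 8 mutant channels. That setting tested 117 of the 139 named genes. The groups share no replicate numbers in the labels, so the main fit was not paired and leaves any difference between the 2 sets in its spread. The block of 2 sets comes from the sex-linked transcripts detected. With no signal or flag for the direct arrays, dim genes there could be bounded only from experiments 1 to 6.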

Other observations

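Rbm45, an RNA-binding protein gene chosen here after its values were seen, lies 0.705 Mb from Nfe2l2 and had a ratio above 0 in each comparison that set Nrf2-/- against an intact Nrf2. The ratio read 3.04, 2.97, 3.49 and 4.15 on the direct arrays (3.41 ± 0.58), 3.30 ± 0.04 in Nrf2 knockout over wild type and 3.11 in double knockout over wild type, against -0.20 in Atg7 cKO over wild type. Rbm45 was not above background in Atg7 cKO channels, so the direct ratio has its denominator at the floor; the level was at least 1.46-fold higher in the double knockout, and no difference between settings can be read from it. Within 5 Mb of Nfe2l2, 9 of 58 genes tested were called (15.5%), against 14.7% of all genes.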
